A study of Gossypium hirsutum with 30 samples.

Results

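Transcripts of an acyltransferase-like protein (ACY) and of an AGC kinase were followed in cotton ovules through 3 probe sets of the Affymetrix cotton array, out of 24132 in the table, of which 24029 were tested after 103 Affymetrix controls were left out. ACY was read by Ghi.207.1.S1_s_at, and the AGC kinase, named in the array annotation after the Arabidopsis kinase AGC2-1 (OXI1), by Ghi.9263.5.A1_x_at and Ghi.9263.5.S1_at, called the x_at and the at probe set below. These probe sets were chosen on measured values of the same comparison: the study named them for their low values in the mutant at 10 dpa (days post anthesis), and listed ACY at 0, 15 and 20 dpa as well. Their differences between genotypes are therefore given as a description, with no test. The study's annotation lists both AGC kinase probe sets under the same expressed sequence tag, so they are not taken as independent, and whether they read a single transcript was not tested.

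Gossypium hirsutum cv. MCU5 bears lint and fuzz on its ovules and served as the wild type (WT), and the fl mutant (fuzzless and lintless), a spontaneous and nearly isogenic line whose lesion is not given in the sources used here, bears neither. Both were grown in the field, and ovules, with their fibres in WT, were taken at 5 stages from 0 to 20 dpa, 5 days apart. Each of the 10 groups holds 3 arrays, labelled as biological replicates, or 30 in all. Whole ovules were extracted, so fewer fibre cells and less RNA per fibre cell cannot be told apart. The log2 values are centred on a median of 0 over the 6 arrays of a stage for every probe set. They hold differences within a stage and no levels, so whether a transcript was present at a stage could not be read, and no value was compared as a level across stages or probe sets. Over all probe sets the array medians lay between −0.037 and 0.043. Where the groups of a stage do not overlap, this centring also makes the values on either side of 0 near mirror images. Direction is given by the sample labels. At 5 and 20 dpa that direction is opposite to the one in the study's own lists, while at 0, 10 and 15 dpa it is the same. The groups of 5 and 20 dpa are therefore called the arrays labelled WT and the arrays labelled fl mutant, and with the labels of these stages exchanged every sign there turns.

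Phosphatidic acid is the simplest membrane phospholipid. Acyltransferases of the endoplasmic reticulum build it from glycerol phosphate as the precursor of other glycerolipids, and phospholipase D releases it from membranes as a signal. In Arabidopsis it binds the kinase PDK1, which activates the AGC kinase OXI1, and plants without OXI1 grow short root hairs, which like cotton fibres are outgrowths of single epidermal cells. The study placed ACY at the synthesis of phosphatidic acid. Its closest Arabidopsis match in the study's annotation is DCR (PEL3), an acyltransferase of the HXXXD family that is known in Arabidopsis for cutin formation. The array annotation links the AGC kinase to OXI1 with weak similarity only, and the closest match by sequence in the study's annotation is the light receptor kinase PHOT1, also of the AGC family. The ending of the ACY probe set (s_at) marks probes shared by several near-identical transcripts. The ending x_at marks probes that may also bind unrelated transcripts, whereas the ending at carries no such mark. Before the ending, the names of the AGC kinase probe sets differ too, A1 for x_at and S1 for at. Whether both read the same strand was not tested.

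The sequences held for these transcripts are the primers that the study designed for ACY in quantitative RT-PCR. Only their bases are shown, all turned to lower case, and they were not matched to the probe set or to a transcript. Each has 24 bases, of which 12 are G or C, and no base is marked.
ACY forward primer: ccacccgaaatccacttcgtaaac
ACY reverse primer: tcgatgaacgtaacaggcatggga

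At 10 dpa the ACY transcript was far lower in the fl mutant. Its log2 values were 4.07, 4.19 and 3.76 in the WT arrays and −3.76, −3.78 and −3.99 in the fl mutant arrays. The groups lay 7.51 apart at their nearest arrays, against a standard deviation (SD) within groups of 0.184. The log2 fold, fl mutant minus WT, was −7.85 (SE 0.129, n = 3 per genotype), a 231-fold difference. It was the third lowest of the 24029 folds at this stage.

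ACY stood lower in fl mutant ovules at 15 dpa too and, by less, at 0 dpa. At 15 dpa its log2 values were 1.95, 2.16 and 2.03 in WT and −2.19, −1.95 and −2.31 in the fl mutant. The log2 fold was −4.20 (SE 0.104), or 18.4-fold. At 0 dpa, the day of flowering, when fibre initials emerge, the log2 values were 0.74, 0.84 and 0.79 in WT and −0.89, −0.77 and −0.74 in the fl mutant. The groups were well apart, but the log2 fold of −1.59 (SE 0.0635, 3.00-fold) lay at the fold limit of 3 that the study used, the nearest to it among the values past it. Without the second WT array it was −1.56 and without the first fl mutant array −1.54, both short of the limit.

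At the stages whose labels run against the study's lists, ACY had the opposite sign. At 5 dpa the log2 values were −0.38, −0.26 and −0.12 in the arrays labelled WT and 0.19, 0.12 and 0.19 in those labelled fl mutant. The groups did not overlap, but the log2 fold of 0.42 (SE 0.0792, 1.34-fold) was small. At 20 dpa, when the secondary wall thickens, the log2 values were −1.36, −1.66 and −1.02 in the arrays labelled WT and 1.08, 1.24 and 1.02 in those labelled fl mutant. The log2 fold was 2.46 (SE 0.151, 5.50-fold). With the labels exchanged it is −2.46, and ACY would be lower in the fl mutant at all 5 stages. The study reports that quantitative RT-PCR gave patterns like those of its own array results for every transcript measured, ACY among them. Those RT-PCR values were not used here. In order of the folds ACY ran from 10 to 15, 0, 5 and 20 dpa by the labels, and from 10 to 15, 20, 0 and 5 dpa with the labels of 5 and 20 dpa exchanged. The differences between stages were not tested.

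**Figure D1:**
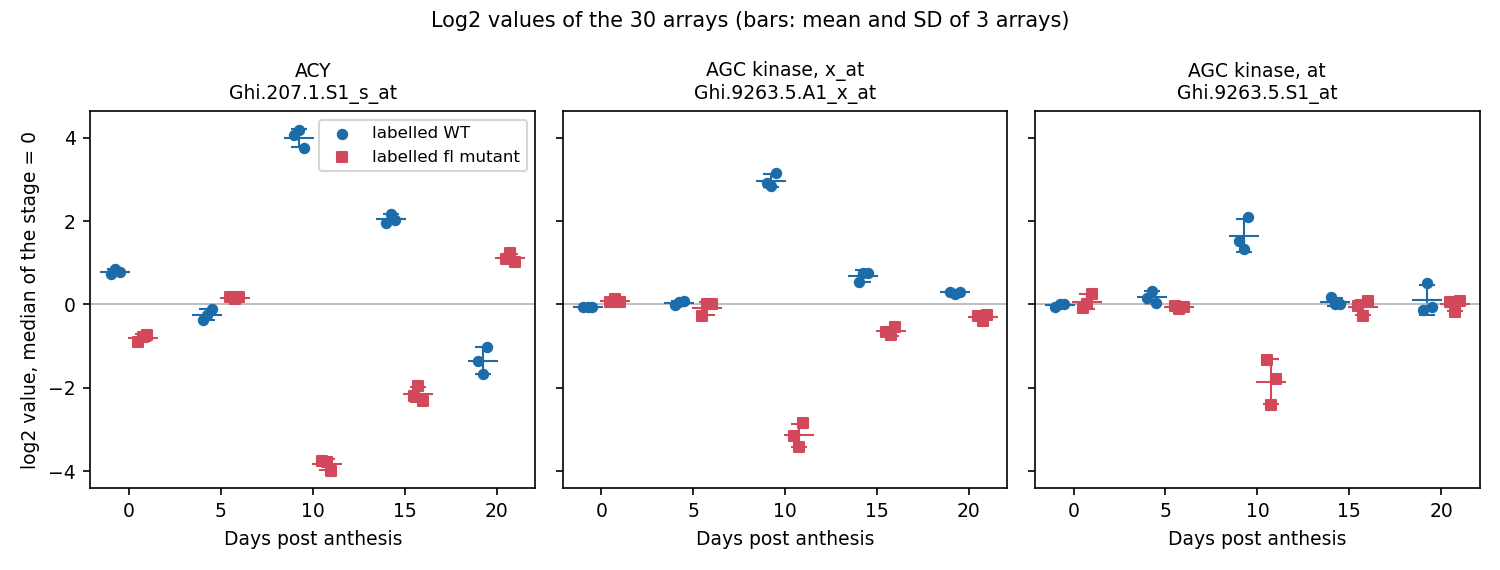
Log2 values (vertical axis, median of the stage at 0) of ACY and the AGC kinase probe sets on each of the 30 arrays by days post anthesis; points are arrays labelled WT (circles) or fl mutant (squares), and bars give the mean and SD of 3 arrays. At 10 dpa all WT arrays stand above all fl mutant arrays in every panel, ACY also separates at the other stages, and the AGC kinase groups lie close together at 0 and 5 dpa.

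The AGC kinase transcript was lower in the fl mutant at 10 dpa by both probe sets, and by different amounts. By the x_at probe set the log2 values were 2.92, 2.85 and 3.15 in WT and −3.16, −3.41 and −2.85 in the fl mutant. The fold was −6.11 (SE 0.151) on the log2 scale, or 69.0-fold, the 43rd lowest of the 24029. By the at probe set the log2 values were 1.53, 1.34 and 2.10 in WT and −1.34, −2.42 and −1.80 in the fl mutant. Here the fold was −3.50 (SE 0.283) on the log2 scale, or 11.3-fold. The groups stayed apart by 2.68, although the arrays scattered widely: the SD within groups, 0.474, was larger than that of 99.8% of the probe sets.

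Away from 10 dpa the AGC kinase differed by less than 3-fold. At 15 dpa the AGC kinase x_at probe set stood at 0.53, 0.76 and 0.76 in WT and −0.65, −0.74 and −0.53 in the fl mutant, a log2 fold of −1.33 (SE 0.0876). This 2.51-fold difference was the nearest to the fold limit among those short of it. The AGC kinase at probe set overlapped between the genotypes there, at 0.17, 0.00 and 0.00 against −0.03, −0.27 and 0.08, with a log2 fold of −0.13 (95% interval −0.37 to 0.12). At 20 dpa the values of the AGC kinase x_at probe set were 0.31, 0.26 and 0.30 in the arrays labelled WT and −0.28, −0.40 and −0.26 in those labelled fl mutant, a log2 fold of −0.60 (SE 0.0684). Its sign at that stage was opposite to that of ACY, and it stays so with the labels exchanged, when both turn. At 20 dpa the AGC kinase at probe set overlapped again, at −0.14, 0.52 and −0.07 against 0.07, −0.17 and 0.09, a log2 fold of −0.10 (95% interval −0.50 to 0.29).

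At 0 and 5 dpa all AGC kinase folds lay between −0.24 and 0.14 on the log2 scale. At 0 dpa the AGC kinase x_at probe set stood at −0.05, −0.06 and −0.07 in WT and 0.05, 0.12 and 0.06 in the fl mutant. These groups did not overlap, but the log2 fold of 0.14 compares with a median of 0.09 over all probe sets at that stage. The 5 dpa values of the AGC kinase at probe set, 0.16, 0.33 and 0.03 in the arrays labelled WT and −0.03, −0.11 and −0.07 in those labelled fl mutant, were apart by 0.05. The other readings of these stages overlapped. They were −0.07, 0.00 and 0.02 in WT against −0.09, 0.00 and 0.26 in the fl mutant for the at probe set at 0 dpa, and −0.02, 0.05 and 0.09 against −0.27, 0.00 and 0.00 by the labels for the x_at probe set at 5 dpa. The folds of the at probe set at 0, 5, 15 and 20 dpa lay between −0.24 and 0.07 by the labels, all far from its fold at 10 dpa. In the x_at probe set the order of the folds ran from 10 to 15, 20, 5 and 0 dpa by the labels. With the labels exchanged its folds at 5 and 20 dpa become 0.13 and 0.60, next to and above that of 0 dpa.

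A probe set is said to be called where limma gave it a p of 0.01 or less after Benjamini-Hochberg adjustment over all probe sets and its fold was 3 or more. At 10 dpa 3 of the 3 probe sets were past these limits and lower, where 6.55% of all probe sets were called lower and 4.91% higher. At 0 dpa 1 of 3, ACY, was past them and lower, where 1.39% were called lower and 0.154% higher, and at 15 dpa again 1 of 3, ACY, where 1.91% were called lower and 1.52% higher. At 5 dpa none was, with 0.179% of all probe sets called lower and 1.84% higher by the labels, and at 20 dpa ACY was past them on the higher side by the labels, with 1.95% called lower and 2.47% higher. The 3 arrays of each genotype did not overlap for 2 of the 3 probe sets at 0, 5, 15 and 20 dpa and for 3 of 3 at 10 dpa. Over all probe sets the groups did not overlap for 56.9% at 0 dpa, 49.2% at 5 dpa, 64.3% at 10 dpa, 54.8% at 15 dpa and 58.3% at 20 dpa. Since the probe sets were picked by this contrast, nothing is read from these counts.

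Readings of the AGC kinase by both probe sets could be set against each other array by array. At 10 dpa the value of the AGC kinase x_at probe set minus that of the AGC kinase at probe set was 1.39, 1.51 and 1.05 in WT and −1.83, −0.99 and −1.05 in the fl mutant. All WT arrays stood above all fl mutant arrays in this difference, so the x_at probe set gave the larger fold on every pair of arrays. The gap between the log2 folds was −2.61 (SE 0.302) at 10 dpa and −1.20 (SE 0.143) at 15 dpa. At 20 dpa it was −0.50 (SE 0.229), and at 0 and 5 dpa 0.06 (SE 0.115) and 0.11 (SE 0.152).

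The array carries other probe sets whose names begin as those of the AGC kinase do, and no other that begins as that of ACY does. They were taken by that name, which is the name of probe sets chosen for low values at 10 dpa. Their folds and p-values are therefore no independent evidence. A cluster probe set ending in a_at (for transcripts of a single gene), without a gene name in the tables used here, read 3.15, 2.84 and 3.26 in WT and −3.26, −2.84 and −3.03 in the fl mutant at 10 dpa. It was down-regulated by a log2 fold of −6.13 (SE 0.144, limma adjusted p = 1.03e-08). At 15 dpa its fold, −1.58 (SE 0.0463, limma adjusted p = 1.1e-06), ended just short of the fold limit. Another, annotated as similar to WAG1, an AGC kinase of auxin transport in Arabidopsis, read 2.84, 2.81 and 2.96 in WT and −3.16, −2.81 and −2.90 in the fl mutant at 10 dpa. Its log2 fold was −5.83 (SE 0.108, limma adjusted p = 4.53e-09) at 10 dpa and −0.98 (SE 0.119), not called, at 15 dpa. Both therefore ran closer to the AGC kinase x_at probe set than the at probe set did, with root mean square (RMS) differences of the 5 log2 folds of 0.249 and 0.298 against 1.30. Since these names share a cluster of the array design, the probe sets may read the same or near-identical transcripts, which was not tested.

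**Figure D2:**
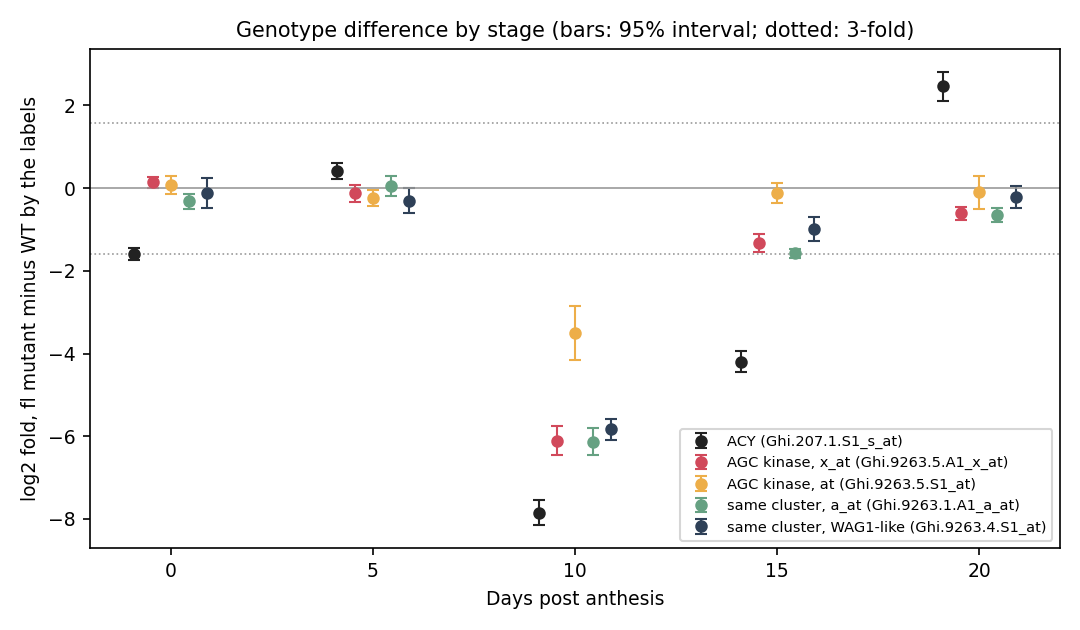
Log2 fold, fl mutant minus WT by the labels (vertical axis), by days post anthesis for ACY, the AGC kinase probe sets and the other probe sets of the same array cluster; bars are 95% intervals from limma with 3 arrays per genotype and dotted lines mark 3-fold. All 5 probe sets are lowest at 10 dpa, from −7.85 for ACY to −3.50 for the AGC kinase at probe set, and ACY alone stands above 2 at 20 dpa by the labels.

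Most of 9 markers of the fibre cell had the sign of ACY at 10, 15 and 20 dpa. At 10 dpa 8 of the 9 were called lower, where 6.55% of all probe sets were. At 15 dpa 8 were called lower, against 1.91% of all probe sets. By the labels 7 were called higher at 20 dpa, against 2.47%. The marker not called was FLA6 (a fasciclin-like arabinogalactan protein) at 10 dpa, at a log2 fold of 0.24, and MYB25 at 15 dpa, at 0.66. The median over the 9 markers ran from 2.32 to 2.48 in the WT arrays and from −2.75 to −2.32 in the fl mutant arrays at 10 dpa, and from 2.14 to 2.22 and from −2.32 to −2.14 at 15 dpa. At 20 dpa it ran from −1.80 to −1.61 in the arrays labelled WT and from 1.61 to 1.68 in those labelled fl mutant. The groups of arrays were closer at 0 dpa (0.34 to 0.41 in WT and −0.40 to −0.34 in the fl mutant), where 2 markers were called lower, and at 5 dpa (−0.34 to −0.19 and 0.21 to 0.25 by the labels), where 1 was called higher. Over all probe sets 1.39% were called lower at 0 dpa and 1.84% higher at 5 dpa. Since levels are not held, a summed level and markers at 0 could not be given. The markers were drawn from transcripts that the study called on these arrays, so their counts are no independent evidence. Their part in the ACY and AGC kinase differences was not tested. Of 3 embryo storage and LEA markers 1 was called lower at 0 dpa and at 10 dpa, and 1 was called higher at 15 dpa. By the labels 2 of them were called higher at 5 dpa and 1 at 20 dpa, the latter at a log2 fold of 9.57. Without the first WT or the third fl mutant array 0 were called higher at 15 dpa, and without the second array labelled WT 1 at 5 dpa. Of 4 seed coat flavonoid markers 1 was called higher at 10 dpa and, by the labels, 4 lower at 20 dpa, with none called at 0, 5 or 15 dpa. The 4 log2 folds at 20 dpa lay between −3.47 and −2.35, so the groups of that stage differed in seed coat transcripts too. The shares called over all probe sets at each stage are those given above. The part of these markers was not tested either.

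Gene lists around these transcripts, 39 probe sets in all, were drawn from tables that the study made with these very arrays, and their counts are therefore no independent evidence. Besides ACY 2 probe sets are matched to DCR in one table of the study, and both were down-regulated at 10 dpa, where 6.55% of all probe sets were called lower. Their log2 folds were −3.08 (SE 0.0824) and −1.85 (SE 0.110). Neither was called at another stage, where their folds lay between −0.72 and 0.41. The study's hormone table matches them, and ACY too, to another HXXXD acyltransferase of Arabidopsis in place of DCR, so the name rests on the table used. Listed probe sets of other HXXXD acyltransferases, a family that decorates phenolics, alcohols and lipids with acyl groups, went the other way. Of 10 probe sets, 9 were up-regulated at 10 dpa, where 4.91% of all probe sets were called higher. The median log2 fold of the 10 was 3.16 against 0.04 over all probe sets, and none was called lower. Several of the 10 share an Arabidopsis match, so the count is of probe sets and not of genes. The highest was at 3.71 (SE 0.0847), and another probe set matched to the same Arabidopsis gene stood at 3.66 (SE 0.102). At 15 dpa 0 of the 10 were called. By the labels 2 were called lower at 20 dpa, 1 of them only while the third fl mutant array was kept.

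Of 6 probe sets for other AGC kinases and their binding partners, 3 were called lower at 10 dpa, where 6.55% of all probe sets were. Among the 3 is the WAG1-like probe set of the array cluster described above (−5.83), which may read the transcript of the AGC kinase itself. The median log2 fold of the 6 was −2.02 against 0.04 over all probe sets, taken over kinases and calcium sensors together. AGC kinases outside the array cluster described above were represented by another WAG1-like probe set. It was down-regulated at 10 dpa, with a log2 fold of −3.57 (SE 0.209), and was not called at any other stage, as for the AGC kinase at probe set. PINOID-binding calcium sensors bind AGC kinases of auxin transport in Arabidopsis. The 4 probe sets similar to them ran on another course. All were down-regulated at 0 dpa, where 1.39% of all probe sets were called lower, with log2 folds of −5.78 to −3.76. All were up-regulated at 15 dpa, where 1.52% were called higher, with log2 folds of 3.28 to 4.60. At 10 dpa 1 of them was called, the closest match to PBP1 itself, at −2.89 (SE 0.107), and the others stood at −1.14 to −0.69.

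Phospholipases release phosphatidic acid or other lipid messengers from membranes. Of 7 listed probe sets 5 were up-regulated at 10 dpa, where 4.91% of all probe sets were called higher. The median log2 fold of the 7 was 1.96 against 0.04 over all probe sets. The highest was a phospholipase C-like phosphodiesterase at 6.01 (SE 0.107), which was called at 15 dpa as well (2.03, SE 0.186). Probe sets of patatin-like phospholipase A, which cleaves fatty acids from membrane lipids, stood at 1.75, 2.96 and 1.96. They share the same Arabidopsis match, so they may not stand for separate genes. The probe set of phospholipase D itself was not called at 10 dpa, with a log2 fold of 0.78 (SE 0.0758). By the labels phospholipase D was higher at 5 dpa (2.20, SE 0.0946) and lower at 20 dpa (−1.86, SE 0.0870). The non-specific phospholipases C were called in opposite directions at 10 dpa, at 2.27 (SE 0.0978) for a match to NPC2 and −1.60 (SE 0.176) for a match to NPC4. The latter call was lost without the second WT array or the third fl mutant array, which leaves 0 of 7 phospholipase probe sets called lower.

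Of 8 probe sets listed under glycerolipid metabolism downstream of phosphatidic acid, 5 were down-regulated at 10 dpa and 0 up-regulated. Over all probe sets 6.55% were called lower there. The median log2 fold of the 8 was −2.12 against 0.04 over all probe sets. The 5 were those of the desaturases FAD3 and FAD8 and 1 of choline kinase. FAD3, the desaturase that forms linolenic acid in the endoplasmic reticulum, was down-regulated at 10 dpa by both of its probe sets, at −4.69 (SE 0.103) and −2.86 (SE 0.116), and at 15 dpa at −2.33 (SE 0.0523) and −1.78 (SE 0.0499). FAD8, the plastid desaturase, was down-regulated at 10 dpa at −3.52 (SE 0.0800) and −1.79 (SE 0.157) and not called at 15 dpa (0.27 and −0.07). Choline kinase, which supplies the head group of phosphatidylcholine, was called lower at 10 dpa by 1 of 3 probe sets (−2.46, SE 0.126). By the labels the other choline kinase probe sets were higher at 5 dpa, at 3.41 (SE 0.0686) and 2.42 (SE 0.102), and the synthase of monogalactosyl diacylglycerol was at 2.24 (SE 0.140).

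Probe sets listed under cutin and wax, which cover the surface of the epidermis, were mostly lower at 10 and 15 dpa. Of 6 probe sets, 5 were down-regulated at 10 dpa, where 6.55% of all probe sets were called lower, and 4 at 15 dpa, where 1.91% were. Their median log2 folds were −3.44 and −2.87, against 0.04 and −0.01 over all probe sets. Some of the 6 share a gene name, so the count is of probe sets and not of genes. At 5 dpa 0 of the 6 were called, with a median log2 fold of 0.11. CER3 (WAX2), an enzyme of wax alkane synthesis, had the signs of ACY at 0, 10, 15 and 20 dpa in one of its probe sets, which stood at −2.61 (SE 0.140), −0.14 (SE 0.0590), −4.54 (SE 0.177), −5.06 (SE 0.132) and 3.14 (SE 0.0767) from 0 to 20 dpa by the labels. The other CER3 probe set was down-regulated at 10 and 15 dpa, at −2.16 (SE 0.125) and −2.79 (SE 0.0665), and stood at −0.81 (SE 0.114) at 20 dpa, not called and of the other sign. A cytochrome P450 named in the array annotation as similar to CYP77B1 was down-regulated by log2 folds of −6.63 (SE 0.101) and −2.95 (SE 0.0569) at 10 and 15 dpa. Another, named as similar to the fatty acid hydroxylase CYP86A8, was at −3.04 (SE 0.105) at 10 dpa and not called at 15 dpa (−0.31). The study's hormone table matches both P450s to CYP79B2 of indole metabolism instead. Fatty acyl-CoA reductases similar to CER4 were called in opposite directions at 10 dpa, at −3.84 (SE 0.113) for one whose closest match is MS2 and 2.64 (SE 0.163) for one whose closest match is CER4 itself.

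**Figure D3:**
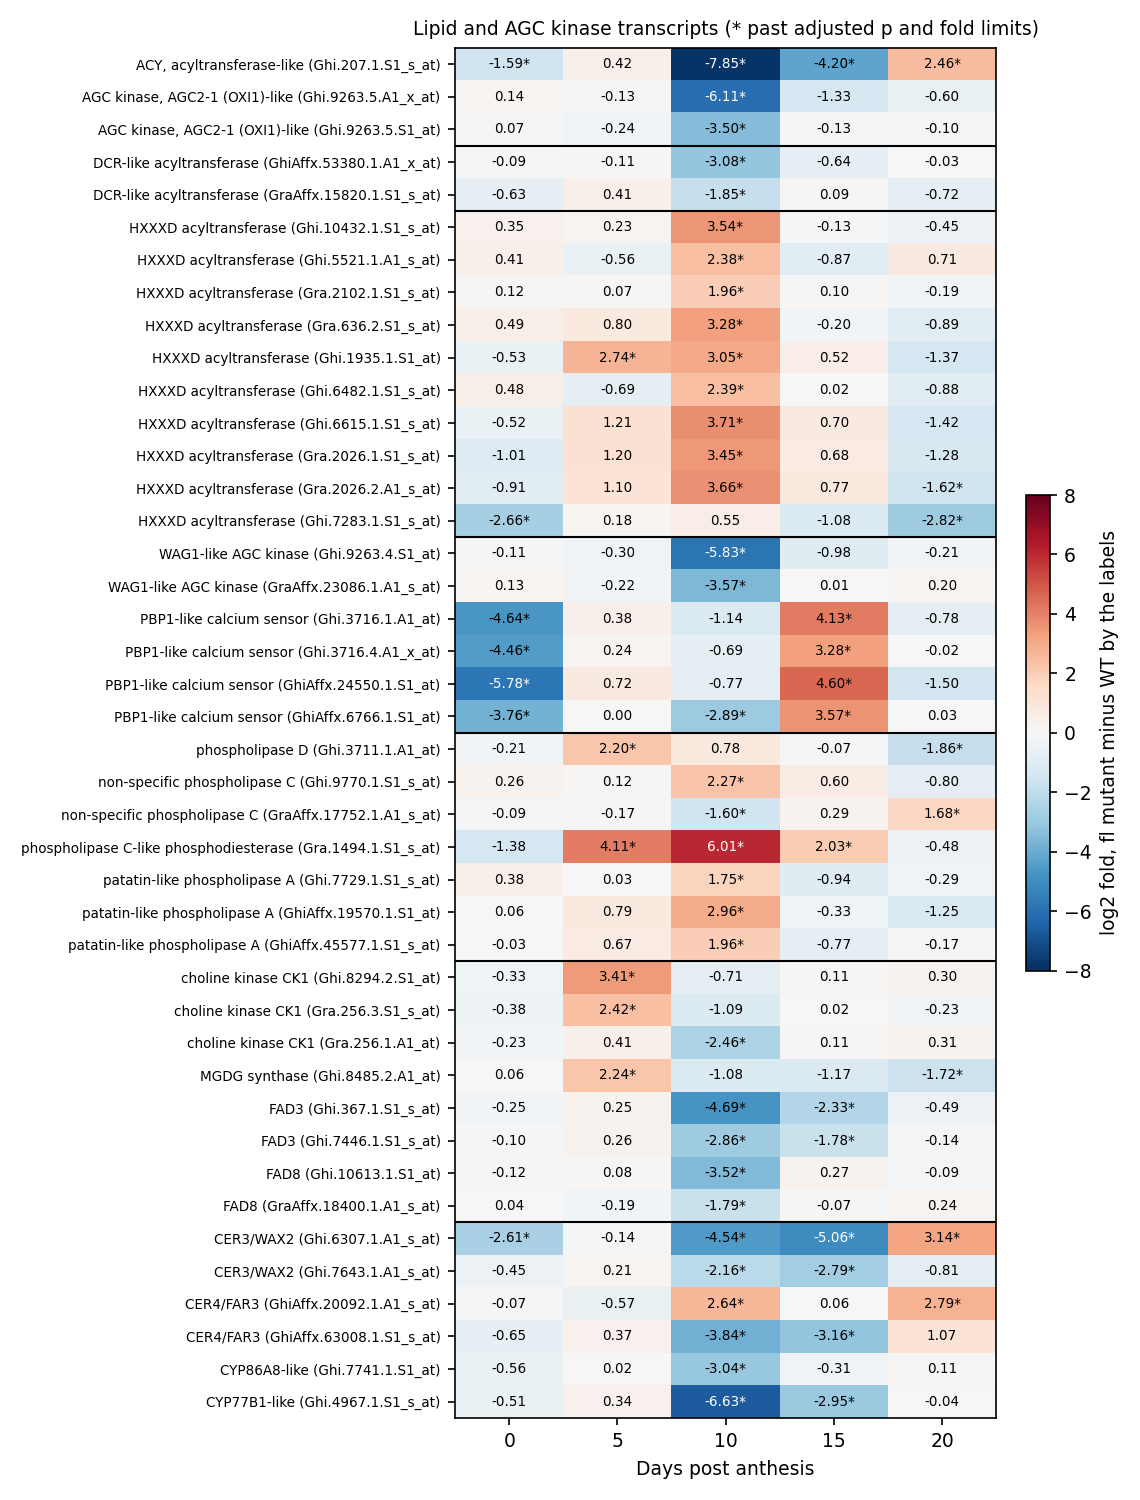
Log2 fold, fl mutant minus WT by the labels (colour and printed value), by days post anthesis (columns) for the ACY and AGC kinase probe sets and the 39 probe sets of the lists (rows, divided by lines into the lists in the order of the text); an asterisk marks a probe set past both limits. At 10 dpa ACY, the AGC kinases, the acyltransferases matched to DCR, the desaturases and most cutin and wax rows are lower. Called higher there are 9 of 10 probe sets of other HXXXD acyltransferases and 5 of 7 of phospholipases.

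The probe sets whose 5 folds ran closest to ACY were then sought among all tested, by the RMS difference of the log2 folds. The nearest was the fibre protein GLP1 (a germin-like wall protein), at an RMS difference of 0.581, with log2 folds of −1.49, 1.00, −7.20, −4.42 and 3.39 from 0 to 20 dpa. A probe set without a gene name in the tables used here followed at 0.798. A transcript of unstated function was at 0.883, one similar to the ubiquitin ligase ATL31 at 1.05, and an arabinogalactan protein similar to FLA12 at 1.10. GLP1 and the arabinogalactan protein are also among the 9 fibre markers. The AGC kinase was not among the 5 nearest to ACY: of 24028 other probe sets the x_at probe set was the 86th nearest (2.19) and the at probe set the 372nd (3.01). In the other direction ACY was the 1364th nearest to the x_at probe set and the 23622nd nearest to the at probe set.

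For the AGC kinase x_at probe set the nearest were both cluster probe sets described above (0.249 and 0.298), followed by a pair without gene names in the tables used here (0.494 and 0.508) and by a transcript similar to galactinol synthase (0.688), which starts the raffinose sugars. The at probe set had closer neighbours. They were an unnamed probe set (0.0750), a member of the gibberellin-regulated family (0.108), the WAG1-like probe set from outside the cluster (0.156), the alternative oxidase AOX1A of mitochondria (0.162) and a transcript similar to the transcription factor WRKY48 (0.169). The x_at probe set was the 2878th nearest to the at probe set, while the at probe set was the 113th nearest to the x_at probe set. Both ranks belong to the same RMS difference of 1.30. All of these neighbours were chosen for their likeness, so the likeness itself is no result.

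**Figure D4:**
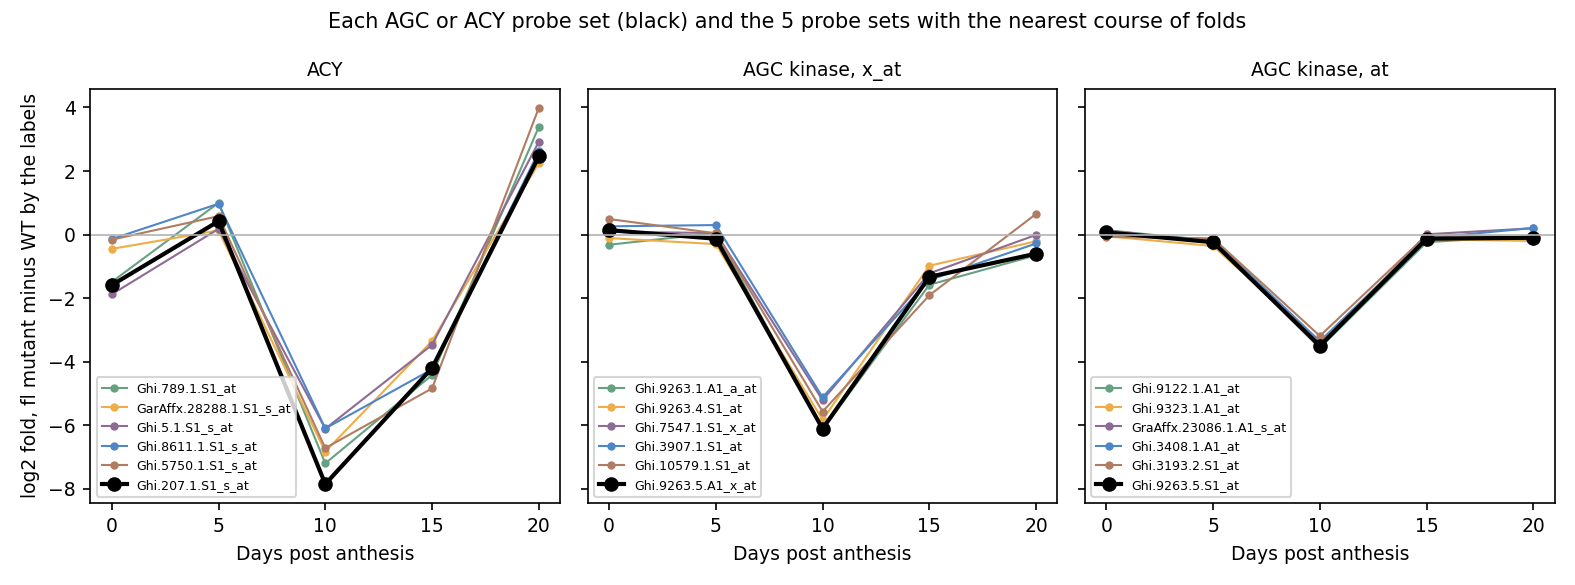
Log2 fold, fl mutant minus WT by the labels (vertical axis), by days post anthesis for ACY and each AGC kinase probe set (black) and the 5 tested probe sets with the smallest RMS difference to it (colours). The ACY panel runs down to −7.85 at 10 dpa and up to 2.46 at 20 dpa, whereas the AGC kinase at probe set leaves the zero line at 10 dpa only.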

How the data were processed

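The authors scanned Affymetrix cotton arrays and summarised them by RMA (per the labels) in GeneSpring, and the deposited log2 values are used as they are. In these values the 6 arrays of a stage have a median of 0 for every probe set. Of 24132 probe sets 103 controls were left out. Stage by stage, 3 fl mutant and 3 WT arrays were compared over 24029 probe sets by limma 3.58.1 (lmFit, then eBayes) in R 4.3.3, with Benjamini-Hochberg adjustment. Calls need a fold of 3 or more and an adjusted p of 0.01 or less. SE and 95% intervals come from this fit. The fit was tested on simulated data. Tables and figures were made in Python 3.11.15.

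The ACY and AGC kinase probe sets, the lists and the alternatives were chosen with earlier results of these data known. Named transcripts are these probe sets, those of the lists and of the same array clusters, and the 5 nearest by RMS difference. Names come from the study's annotation. All 30 arrays were used, and the number of arrays limits the precision. The methods' t-test, 1 fit of all arrays, a replicate block, other array centring, other limits, arrays left out and exchanged labels at 5 and 20 dpa were the alternatives. A search of the whole array by product name was not run, since the product names at hand cover only 2366 probe sets, those in the study's tables.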

Additional observations from a re-analysis of the deposited data

Results flagged for a closer look

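ACY differed from stage to stage in direction by the labels, with all arrays of a genotype on one side: log2 folds of −1.59, −7.85 and −4.20 at 0, 10 and 15 dpa against 0.42 and 2.46 at 5 and 20 dpa. The differences between stages were not tested, since ACY was chosen on these values, and the opposite signs end when the labels of 5 and 20 dpa are exchanged. For the AGC kinase x_at probe set a log2 fold of 0.14 at 0 dpa stands against −6.11, −1.33 and −0.60 at 10, 15 and 20 dpa, likewise not tested.

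The PINOID-binding sensors were lower at 0 dpa and higher at 15 dpa, at −4.64 and 4.13, −4.46 and 3.28, and −5.78 and 4.60 for those matched to an EF-hand relative of PBP1, and −3.76 and 3.57 for the one matched to PBP1, which was also lower at 10 dpa (−2.89). The difference between these stages was not tested, and it does not rest on the stages with doubtful labels.

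Other transcripts had called values of both directions only where 5 or 20 dpa was among the stages, and no test of the difference was run. They include an HXXXD acyltransferase, at 3.66 at 10 and −1.62 at 20 dpa, and a non-specific phospholipase C, at −1.60 and 1.68. The HXXXD acyltransferase also stood at −0.91 at 0 dpa, not called, a sign opposite to that at 10 dpa that does not rest on those labels. One of the CER3 probe sets was at −2.61, −4.54, −5.06 and 3.14 at 0, 10, 15 and 20 dpa, while the other, at −2.16 and −2.79 at 10 and 15 dpa, stood at −0.81 at 20 dpa and did not turn. Phospholipase D, at 2.20 and −1.86, and the monogalactosyl diacylglycerol synthase, at 2.24 and −1.72, differed between 5 and 20 dpa, in an order that exchanged labels reverse but do not end.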

How the results depend on the processing

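With the labels exchanged at 5 and 20 dpa the log2 folds there became −0.42 and −2.46 for ACY, 0.13 and 0.60 for the AGC kinase x_at probe set and 0.24 and 0.10 for the AGC kinase at probe set. Leaving out 1 array at a time moved ACY at 0 dpa between −1.62 and −1.54, past the fold limit or short of it. The same moved the AGC kinase at probe set between −0.03 (without the third fl mutant array) and 0.15 at 0 dpa and between −0.22 and 0.11 (without the second WT array) at 20 dpa, and arrays centred on the 75th percentile gave −0.01 at 0 dpa. At a fold of at least 2, the AGC kinase x_at probe set passed at 15 dpa (−1.33). At that limit 899, 1080, 5472, 1736 and 2607 probe sets were called from 0 to 20 dpa, against 371, 484, 2754, 824 and 1062 at a fold of at least 3. A single fit of all 30 arrays, the methods' t-test, the replicate block, either array centring and an adjusted p of up to 0.05 changed no call of ACY or the AGC kinase. With the replicate block 2754 probe sets were called at 10 dpa, as without it. The block and the single fit leave every fold unchanged, and an adjusted p of up to 0.05 also gave 2754. Calls at 10 dpa turned on the fold limit, so these settings could change little. Samples of 1 replicate number did not deviate together (correlations of −0.16 to 0.16). No pairing by number was seen, which 3 arrays per group cannot exclude. Of 1206 list counts under the alternatives, 1167 stayed within 1.5 times; 22 of the others came from exchanged labels, 11 from the fold limit and 6 from arrays left out. These include 1 in place of 2 HXXXD acyltransferases lower at 20 dpa without the third fl mutant array. Of the 5 nearest courses, 4 for ACY were shared when only 0, 10 and 15 dpa were used, and 3 for each AGC kinase probe set; by Pearson correlation of the array values 1 was shared for ACY, 3 for the AGC kinase x_at probe set and 1 for the AGC kinase at probe set. Since no levels are held, a filter on dim probe sets and another background correction were not run.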
